A study of Mus musculus with 9 samples.

Results

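CXC chemokines are small secreted proteins, named for a residue between conserved cysteines, that draw leukocytes along a gradient. The 9 genes described here were Pf4 (whose product is CXCL4), Cxcl1, Cxcl2, Cxcl9, Cxcl10, Cxcl12, Cxcl13, Cxcl14 and Cxcl16. They were picked by gene symbol from the 31053 genes of the count matrices, and all 9 were found. The cells were live CD11b+ cells sorted by flow cytometry from brains without cerebellum, and were measured by droplet single-cell RNA-seq, in which each captured transcript gives 1 unique molecular identifier (UMI). CD11b is an integrin of myeloid cells, so the sort takes microglia together with other brain myeloid cells. All mice were female C57BL/6J animals of 5 months. The Ctrl group was untreated, with 1 brain for each of its 3 libraries. The D0 group ate a diet with PLX5622, an inhibitor of the CSF1R receptor that microglia need to survive, at 1200 mg/kg for 14 days, and the D2 group ate the same diet and then 2 days of control diet, when microglia start to repopulate. D0 and D2 libraries pooled 2 brains each, and each group had 3 libraries. The library D2-3 stood apart and was left out by the study. It is shown beside the others but enters no main comparison, which leaves 2 D2 libraries.

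The CXC ligands fall into groups by receptor and by induction. CXCL1 and CXCL2 act on CXCR2 and call neutrophils, and their genes are classical targets of NF-kappaB. CXCL9 and CXCL10 act on CXCR3 of activated T and NK cells and are induced by interferons, CXCL10 also through NF-kappaB. CXCL12 holds CXCR4-bearing cells in their niches, CXCL13 organizes B cells through CXCR5, and CXCL14 is made constitutively by epithelial and neural cells. CXCL16 is made as a membrane protein that binds CXCR6 and is released by the proteases ADAM10 and ADAM17. CXCL4 is best known from platelets, and Pf4 is also a marker gene of the macrophages at the borders of the brain.

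In the annotation of the GRCm38 build, 6 of the 9 genes lie on chromosome 5. Pf4 (chr5:90772435-90773383), Cxcl1 (chr5:90891241-90893115) and Cxcl2 (chr5:90903871-90905938) are on the plus strand, with 10.8 kb between Cxcl1 and Cxcl2. Cxcl9 (chr5:92321347-92328079) and Cxcl10 (chr5:92346638-92348889) are on the minus strand, 18.6 kb apart. Cxcl13 (chr5:95956951-95961068) is farther along on the plus strand. Cxcl12 is on chr6:117168535-117181367, Cxcl14 on chr13:56288643-56296551 and Cxcl16 on chr11:70453983-70459984.

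Promoters of 8 of the 9 genes were found in RefSeq (GRCm38.p6), from 250 bases before to 50 bases after the start. Of these, 3 are printed: Cxcl10, which was called in microglia-like cells, and the neighbours Cxcl2 and Cxcl1. The mean levels of these neighbours peaked in different cell classes, for Cxcl1 on few cells. The 3 promoters are read along the gene's own strand, from chr5:92348840-92349139 (minus), chr5:90903649-90903948 (plus) and chr5:90890995-90891294 (plus). Capitals mark matches to the NF-kappaB consensus or, in Cxcl10, also to the interferon response motif (GAAA, 2 further letters, GAAA), both searched on both strands.
Cxcl10: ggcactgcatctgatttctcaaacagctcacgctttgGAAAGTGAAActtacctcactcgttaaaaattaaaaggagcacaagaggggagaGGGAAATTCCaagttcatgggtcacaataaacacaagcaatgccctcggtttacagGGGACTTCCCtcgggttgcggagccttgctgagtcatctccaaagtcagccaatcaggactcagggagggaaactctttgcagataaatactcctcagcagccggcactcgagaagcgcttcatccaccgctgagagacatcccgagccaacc
Cxcl2: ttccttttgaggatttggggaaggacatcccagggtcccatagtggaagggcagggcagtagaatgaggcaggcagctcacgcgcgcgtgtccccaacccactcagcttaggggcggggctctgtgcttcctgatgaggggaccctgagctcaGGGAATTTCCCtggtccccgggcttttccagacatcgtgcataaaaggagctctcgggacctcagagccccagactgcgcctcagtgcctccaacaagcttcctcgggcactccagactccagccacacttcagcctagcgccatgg
Cxcl1: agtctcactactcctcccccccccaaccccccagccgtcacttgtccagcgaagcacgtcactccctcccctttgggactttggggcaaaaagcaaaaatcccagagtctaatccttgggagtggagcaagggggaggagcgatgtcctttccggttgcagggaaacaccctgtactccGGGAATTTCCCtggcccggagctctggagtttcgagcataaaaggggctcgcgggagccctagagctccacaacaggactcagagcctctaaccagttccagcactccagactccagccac
The Cxcl10 promoter held the interferon motif starting at base -213 and NF-kappaB matches at -159 and -103 from the start. Cxcl2 and Cxcl1 held the same 11-letter run GGGAATTTCCC, which matched the consensus on both strands in overlapping frames, at -97 in Cxcl2 and at -71 in Cxcl1. Of 32817 promoters of this length, 4.50% held an NF-kappaB match and 3.43% the interferon motif. The Cxcl14 promoter held an interferon motif at -172, and those of Pf4, Cxcl9, Cxcl12 and Cxcl13 held neither in this window. These matches describe letters and were not tested for binding.

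In all, 30463 of 36391 barcodes passed the study's filters on UMIs, genes and mitochondrial share, of which 28655 were in the 8 libraries used, with median depths of 4810 to 9243 UMIs per cell over the 9 libraries. In D2-3, 37.3% of barcodes were over the upper limit, against 1.20% to 24.2% in the others. Pairs of libraries shared 1 to 8 barcodes. Cells were clustered without the 9 chemokine genes and clusters were named from marker lists that do not hold them, so a name such as microglia-like rests on other genes. The defining markers of microglia were present in the microglia-like cells, but the summed level of the 10 markers (P2ry12, Tmem119, Sall1 and others) had separate ranges in the 3 groups. It lay between 28592 and 32772 CPM (UMIs per 1000000 UMIs) for Ctrl libraries, 20407 and 22874 for D0, and 17469 and 18286 for D2.

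The chemokine genes divided the sorted cells by type. Levels below are CPM of the UMIs of a class summed per library, given as the mean and SD over libraries with at least 20 cells of the class, and serve to compare 1 gene across classes, not genes with each other. They are descriptions, without a test.

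**Figure D1:**
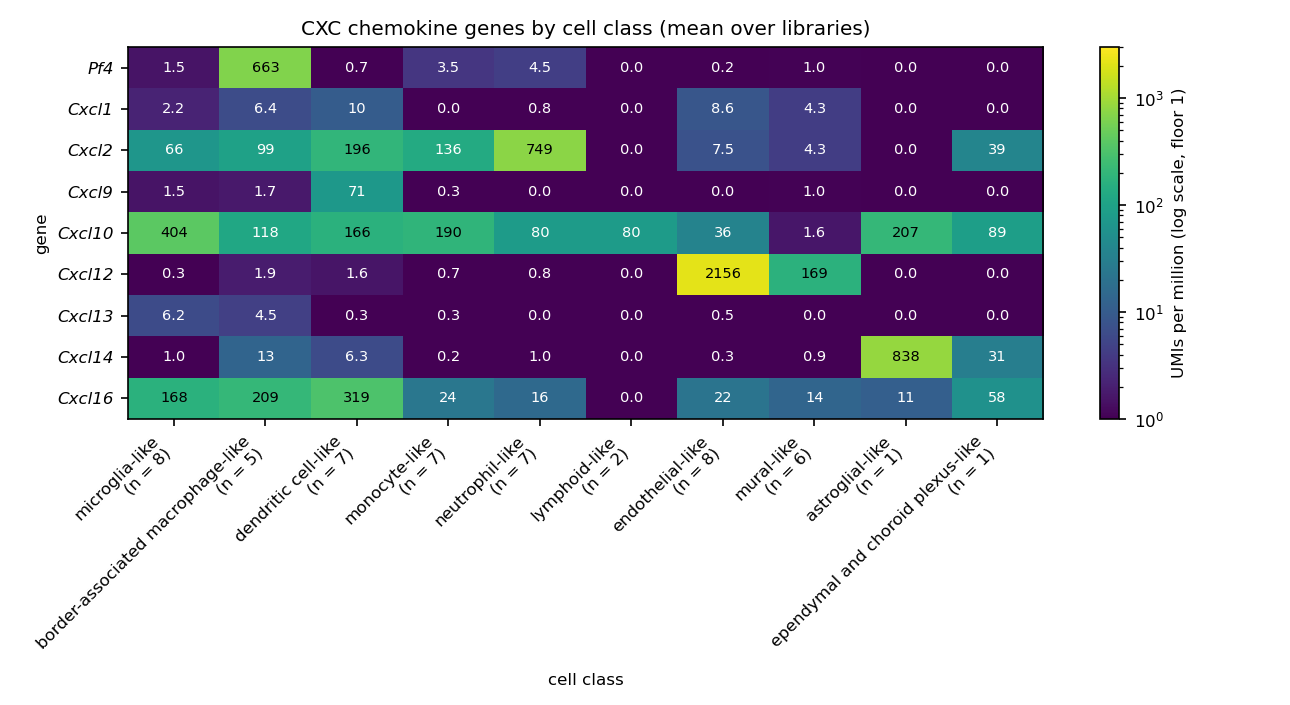
Mean level of each CXC chemokine gene (rows) in each cell class (columns), in CPM on a log colour scale with a floor of 1, with the number of libraries behind each class. Rows are to be read across: Pf4 peaked in border-associated macrophage-like cells at 663 CPM, Cxcl12 in endothelial-like cells at 2156 CPM and Cxcl2 in neutrophil-like cells at 749 CPM.

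Cxcl12 was a gene of the vessel wall. It reached 2156 ± 395 CPM (SD, n = 8) in endothelial-like cells, where 762 of 906 cells (84.1%, pooled over libraries) held at least 1 UMI and which held 96.8% of its UMIs. Mural-like cells followed at 169 ± 107 CPM (n = 6). Microglia-like cells were at 0.30 ± 0.20 CPM, with a UMI in 0.211% of cells, although their median depth of 7120 UMIs was above that of endothelial-like cells (3666). Both vascular classes passed a sort for CD11b, which endothelial and mural cells are not known to carry.

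Pf4 marked border-associated macrophage-like cells. It was at 663 ± 518 CPM (n = 5) there, with a UMI in 66.1% of 578 cells pooled over libraries that differed widely (given by library below), and this class held 92.2% of its UMIs. The microglia-like level was 1.54 ± 0.38 CPM (n = 8), with a UMI in 0.995% of cells, and 182 of these 217 cells held a single UMI. Monocyte-like cells (3.50 ± 6.17 CPM) and neutrophil-like cells (4.48 ± 11.6 CPM) had higher means. There, however, 1 cell held 11 of 15 and 12 of 14 UMIs. Dendritic cell-like (0.73 CPM) and endothelial-like cells (0.20 CPM) were lower. Whether the low microglia-like level is background or expression was not tested. Of 10 platelet and megakaryocyte genes, Itga2b, Gp1bb, Gp1ba, Gp6 and Tubb1 were at 0 in border-associated macrophage-like cells. The platelet chemokine gene Ppbp was at 0.40 ± 0.60 CPM and Gp9 at 27.5 ± 14.2 CPM there. Microglia-like cells of the 8 libraries used held 20.5 (D2-2) to 63.2 CPM (Ctrl-3) of Gp9, so it was not particular to this class. Itgb3, Treml1 and Clec1b of the list are not given for this class.

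Cxcl2 and Cxcl1, though neighbours, differed in the class with the highest mean level. Microglia-like cells, the most numerous class, held most UMIs of both, 64.5% for Cxcl2 and 69.4% for Cxcl1. Cxcl2 was at 749 ± 547 CPM (n = 7) in neutrophil-like cells, where 39.7% of 1175 cells held a UMI, pooled over libraries, at a median depth of 3331 UMIs. Dendritic cell-like cells (196 ± 167 CPM), monocyte-like cells (136 ± 80.2), border-associated macrophage-like cells (98.7 ± 104) and microglia-like cells (66.3 ± 41.0) followed, and the ranges of these 4 over libraries overlapped. Cxcl1 was rare, with a UMI in 120 kept cells. It stood at 10.2 ± 13.4 CPM in dendritic cell-like and 8.58 ± 9.27 CPM in endothelial-like cells, and neutrophil-like cells, high in Cxcl2, were at 0.77 ± 1.32 CPM. Among dendritic cell-like cells only 8 (1.32%) held Cxcl1, and 1 of them held 49 of the 82 UMIs. The share of positive cells was larger in endothelial-like (2.54%), border-associated macrophage-like (2.08%) and mural-like cells (1.65%).

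Cxcl9 and Cxcl10, the pair of CXCR3 ligands, also parted. Cxcl9 was found mostly in dendritic cell-like cells, at 70.5 ± 75.7 CPM (n = 7), with a UMI in 30 of 604 cells and 57.8% of its UMIs. Cxcl10 was spread over many classes. It was at 404 ± 342 CPM (n = 8) in microglia-like cells, with a UMI in 17.7% of 21804 cells. Cells left unnamed (231 ± 273), monocyte-like (190 ± 117), dendritic cell-like (166 ± 174), border-associated macrophage-like (118 ± 99.5) and neutrophil-like cells (80.5 ± 65.0) overlapped that range, and these means mix groups. In Ctrl alone, microglia-like cells were at 98.2 ± 57.5 CPM, border-associated macrophage-like cells at 106 ± 104 and monocyte-like cells at 179 ± 89.6 (n = 2), and in D0 the means were 655 in microglia-like, 263 in monocyte-like and 222 in dendritic cell-like cells. Microglia-like cells, the most numerous class, held 93.0% of the Cxcl10 UMIs.

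Cxcl16 was a gene of resident macrophages and dendritic cells. It stood at 319 ± 142 CPM in dendritic cell-like cells, 209 ± 92.4 in border-associated macrophage-like cells and 168 ± 74.0 in microglia-like cells, whose ranges overlapped, with a UMI in 68.9%, 53.8% and 51.1% of cells. Monocyte-like cells were at 24.0 ± 11.1 CPM and neutrophil-like cells at 15.6 ± 6.13 CPM, below every microglia-like library (67.8 to 264).

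Cxcl13 and Cxcl14 had few UMIs in myeloid cells. Cxcl13 was at 6.16 ± 6.54 CPM in microglia-like cells, at 4.54 ± 6.95 (n = 5) in border-associated macrophage-like cells and at 0 in every neutrophil-like library. The border-associated macrophage-like value depended on the minimum of cells, and with libraries of at least 10 cells it was 194 ± 356 CPM (n = 7). The highest of these, D0-2 at 925 CPM and D2-1 at 413, each held all their Cxcl13 UMIs (121 and 34) in 1 cell. Cxcl14 was an astroglial transcript, at 838 CPM in the single library with at least 20 astroglial-like cells, and 103 of 148 astroglial-like cells (69.6%) held a UMI. Border-associated macrophage-like cells held 13.4 ± 12.8 CPM of it and microglia-like cells 0.99 ± 0.56. Neutrophil-like cells were at 0.97 ± 1.34 CPM, on 3 UMIs.

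The genes whose levels over classes and libraries were most like a chemokine's were taken as a description, by a fixed measure. Over 60 sums from 11 classes, Pf4 went with Folr2 (Pearson r = 0.921 on log2(CPM + 10)), a folate receptor of border macrophages, and with Pla2g2d and Ccl8. Cxcl12 went with the endothelial sialomucin gene Emcn (r = 0.993), Cxcl2 with the inflammasome gene Nlrp3 (r = 0.850) and the chemokine receptor gene Ccr1 (r = 0.850), Cxcl9 with Ccr7 (r = 0.813) and Cxcl10 with the CC chemokine genes Ccl3 (r = 0.802) and Ccl4 (r = 0.782). Cxcl14 was most like Fabp7 (r = 0.896), a fatty acid binding protein gene of astroglia, and Cxcl16 most like Slamf9 (r = 0.876). Sums from the same library share its depth and ambient RNA, so these values are descriptions across classes.

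The receptors stood mostly in other classes than the ligands. Cxcr2, the receptor gene for CXCL1 and CXCL2, was at 577 ± 240 CPM in neutrophil-like cells, so neutrophil-like cells held both Cxcl2 and its receptor gene. Cxcr6, the receptor gene for CXCL16, was at 288 ± 110 CPM and Cxcr3 at 85.4 ± 21.8 CPM in lymphoid-like cells (n = 2). Cxcr4, the receptor gene for CXCL12, was at 348 ± 283 CPM in neutrophil-like and 331 ± 167 CPM in monocyte-like cells, and the scavenging receptor gene Ackr3 at 209 ± 129 CPM in mural-like and 75.9 ± 18.1 CPM in endothelial-like cells. Adam10 and Adam17, whose proteins shed CXCL16, were at 186 ± 26.0 and 109 ± 10.4 CPM in microglia-like cells.

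The first comparison asked how PLX5622 changed these genes in the surviving microglia-like cells. Counts were summed per library and tested with edgeR over 12398 genes, in 1 fit of the 8 libraries, with Benjamini-Hochberg adjustment over all genes. Cxcl10, Cxcl13, Cxcl14 and Cxcl16 were higher in D0 than in Ctrl, 4 of the 8 chemokine genes that passed the filter on low counts (Cxcl12 did not pass). The background was 12.3% of all tested genes called higher and 19.7% called in either direction. The median log2 fold of the 8 genes was 1.63, against -0.05 over all genes. The p-values measure the spread between libraries, each from 1 brain or 1 pool.

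Cxcl16 had the narrowest spread. The Ctrl libraries held 67.8, 90.3 and 92.0 CPM, the D0 libraries 185, 264 and 219, and D2-1 and D2-2 229 and 194. Every D0 and D2 library was above every Ctrl library, as for 18.8% (D0) and 23.2% (D2) of all tested genes. The log2 fold was 1.62 (SE 0.19, edgeR adjusted p = 0.000408) for D0 against Ctrl and 1.44 (SE 0.21, adjusted p = 0.00143) for D2 against Ctrl. Both calls held in each of the 26 settings run, the reported one included, with log2 folds of 1.42 to 2.02 for D0 and 1.31 to 1.85 for D2.

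Cxcl10 moved farther but with more spread. It was at 38.4, 103 and 153 CPM in Ctrl, at 262, 682 and 1020 in D0, and at 632 and 342 in D2. The D0 libraries differed widely among themselves, but all 5 treated libraries were above all 3 Ctrl libraries. The log2 fold was 2.93 (SE 0.59, edgeR adjusted p = 0.0085) for D0 and 2.39 (SE 0.62, adjusted p = 0.0249) for D2 against Ctrl. D2-3 held 1698 CPM, with 558 of its 638 microglia-like cells in a cluster led by mitosis genes. With D2-3 in the fit the spread grew and the adjusted p for D0 was 0.0839, while that for D2 was 0.0268. The D2 call was lost without Ctrl-2 (adjusted p = 0.0703), D2-1 (0.132) or D2-2 (0.0534).

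**Figure D2:**
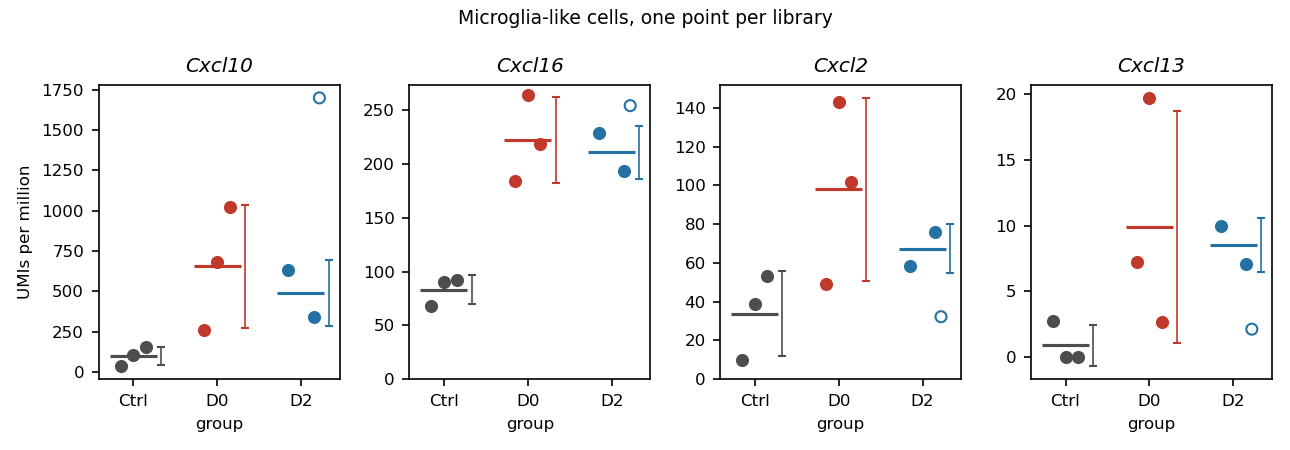
Level of Cxcl10, Cxcl16, Cxcl2 and Cxcl13 in microglia-like cells of each library (points), in CPM, with the group mean (line) and SD (bar) over 3 Ctrl, 3 D0 and 2 D2 libraries; the hollow point is D2-3, which is in no mean. Cxcl16 lies between 67.8 and 92.0 in Ctrl and between 185 and 264 in D0, and Cxcl10 between 38.4 and 153 in Ctrl and between 262 and 1020 in D0.

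Cxcl2 was in between. Ctrl libraries held 9.98, 38.6 and 53.0 CPM, D0 libraries 48.9, 143 and 102, and D2 libraries 58.3 and 76.1, so that D0-1 lay below Ctrl-3. The log2 fold for D0 was 1.74 (SE 0.56, edgeR adjusted p = 0.0578), which missed the threshold. Same-numbered Ctrl and D0 libraries deviated together over all genes, but so did Ctrl-3 and D0-2 (r = 0.298). The numbers thus do not clearly pair the libraries. With the replicate number as a block the log2 fold was 1.88 with an edgeR adjusted p of 0.0062. For D2 the log2 fold was 1.08 (adjusted p = 0.256).

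Cxcl13 rested on few cells, and its D0 call was lost in 11 other settings, some of them named below. It was at 2.70, 0 and 0 CPM in Ctrl, at 7.23, 19.7 and 2.67 in D0 and at 9.96 and 7.04 in D2. A UMI was found in 15, 0 and 0 Ctrl cells, in 16, 34 and 9 D0 cells and in 28 and 17 D2 cells. A single cell of D0-2 held 355 of the 708 UMIs of that library, and single cells held 79 of 138 in D0-1 and 30 of 51 in D0-3. The log2 fold was 3.64 (SE 1.08, edgeR adjusted p = 0.0428) for D0, and it was not called without Ctrl-2, Ctrl-3, D0-2, D2-1 or D2-2 (adjusted p of 0.0602 to 0.186), by DESeq2 (0.197) or with D2-3 in the fit (0.193).

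Cxcl14 was called in both comparisons at a very low level, and whether it is microglial expression was not tested. Microglia-like cells held 13, 7 and 10 UMIs in the Ctrl libraries, 21, 32 and 30 in D0 and 23 and 23 in D2, that is 0.37 to 1.91 CPM. Neutrophil-like libraries ranged from 0 to 3.21 CPM, on 3 UMIs in 1175 cells. The log2 fold was 1.64 (SE 0.36, edgeR adjusted p = 0.0126) for D0 and 1.91 (SE 0.40, adjusted p = 0.00967) for D2. The summed level of 10 astroglial markers in the same cells was 173 to 191 CPM in Ctrl and 85.9 to 110 in D0. Its part in the Cxcl14 level was not tested. With all kept myeloid cells the log2 fold of Cxcl14 was 0.06 (edgeR adjusted p = 0.934) for D0. With D2-3 in the fit the adjusted p for D0 was 0.502. In all, the D0 call was lost in 6 other settings. The D2 call was lost in 4, and 1 more setting changed its direction. In D2-3, 66 of 638 microglia-like cells (10.3%) held a Cxcl14 UMI, at 17.4 CPM. Of 26 Cxcl14-positive microglia-like cells thinned to 2000 UMIs, 8 (30.8%) held Lgals3, the gene of MAC2, against 2.31% of all, without a test.

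Pf4, Cxcl1 and Cxcl9 did not pass the test in microglia-like cells. Pf4 had a log2 fold of -0.07 (SE 0.27, edgeR adjusted p = 0.885) for D0 against Ctrl, at the low level given above. Cxcl1 had a log2 fold of 0.89 (adjusted p = 0.606), with UMIs in 66 of 21804 cells. Cxcl9 had a log2 fold of 1.43 (adjusted p = 0.480), or 2.04 (adjusted p = 0.0392) with the replicate block, and 1 cell held 76 of the 78 Cxcl9 UMIs of D0-1.

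The second question was what 2 days without the inhibitor changed. Against Ctrl, 3 of the 8 genes were higher in D2 (Cxcl10, Cxcl14 and Cxcl16), where 10.9% of all genes were called higher and 18.7% in either direction. Cxcl13 had a log2 fold of 3.28 (edgeR adjusted p = 0.0792). Both comparisons use the same Ctrl libraries. Between D2 and D0 themselves no gene was called (0% of 12398, with 842 at an unadjusted p under 0.05, and 26 called by DESeq2, none of them a chemokine of the set). The log2 difference of D2 minus D0 was -0.54 (SE 0.63) for Cxcl10 and -0.18 (SE 0.21) for Cxcl16, so changes of this size could not be told from the spread between 3 and 2 libraries.

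The shares of positive cells were compared after thinning each microglia-like cell to 2000 UMIs, since depth differed between libraries. Cxcl16 was found in 11.3%, 13.5% and 14.7% of Ctrl cells, in 23.8%, 32.2% and 26.2% of D0 cells and in 29.3% and 26.8% of D2 cells. Cxcl10 was found in 2.06%, 5.08% and 5.71% of Ctrl cells, 9.24%, 19.3% and 22.8% of D0 cells and 19.6% and 9.67% of D2 cells. Cxcl2 was found in 0.73%, 1.85% and 2.48% of Ctrl cells, in 2.50%, 6.39% and 4.07% of D0 cells and in 3.64% and 3.25% of D2 cells. In these 3 genes every D0 library was above every Ctrl library, as in 9.74% of all genes tested, and in D2 the same was seen for 5 genes (with Cxcl13 and Cxcl14), as in 15.7% of all genes. For Cxcl2 the gap in D0 was very small, at 2.50% in D0-1 against 2.48% in Ctrl-3, and in CPM D0-1 lay below Ctrl-3. For Cxcl14 the gap was small, at 0.144% and 0.141% in D2 against 0.127% in Ctrl-1. Only 26 of 20897 thinned cells held it, and 42 held Cxcl13. Unthinned, Cxcl10 was in 3.75% to 9.11% of Ctrl cells, 14.6% to 36.6% of D0 cells and 15.9% to 26.2% of D2 cells. The exact two-sided permutation p was 0.1 for each of the 3 genes in D0 (adjusted 0.4), the smallest that 3 against 3 libraries can give, and 0.2 is the smallest for 2 against 3.

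The transcripts were spread over cells in different ways. Cxcl16 had a UMI in 11144 of 21804 microglia-like cells, and the 219 cells richest in it (the top 1%) held 12.6% of its UMIs. For Cxcl10, with 3855 positive cells, the top 1% held 39.6%, with up to 585 UMIs in a cell. For Cxcl2, with 1149 positive cells, the top 1% held 69.1%. Cxcl16 was thus a gene of many cells with few UMIs each, whereas Cxcl10 and Cxcl2 were concentrated.

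These concentrated cells lay in particular clusters. The clusters were drawn without the chemokine genes and are named by their leading genes, and values over clusters are descriptions. Cxcl10 was at 1392 ± 706 CPM (n = 5 libraries with at least 20 cells) in the cluster led by the mitosis genes Top2a and Mki67, where 46.6% of 1625 cells held a UMI. It was at 1146 ± 521 CPM (n = 7) in the cluster led by the interferon-stimulated genes Ifit3 and Ifit2, and at 1027 ± 560 CPM (n = 6) in the cluster led by Nes, Ccl12 and the replication gene Mcm6. It was at 477 ± 330 CPM (n = 8) in the cluster led by Arl5c, Dusp2 and the interleukin gene Il1b, and at 45.4 ± 54.0 CPM (n = 7) in the cluster led by Myo18b and Bank1. These means mix groups, which fill the clusters unequally. In D2, Cxcl10 was at 664 and 991 CPM in the mitotic cluster and at 1166 and 1396 in the interferon cluster.

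Cxcl2 was highest in the Il1b cluster, at 210 ± 91.3 CPM (n = 8), which held 56.6% of its microglial UMIs, and the Nes cluster followed at 167 ± 135 CPM. Cxcl1 was found there too, with 58.5% of its 400 microglial UMIs in the Il1b cluster. Cxcl9 was at 22.9 ± 32.1 CPM and Cxcl13 at 33.2 ± 23.5 CPM in the interferon cluster, which held 58.7% of the microglial Cxcl9 UMIs and 16.9% of those of Cxcl13. More of the Cxcl13 UMIs lay in the Il1b cluster (52.5%) and the mitotic cluster (17.5%), but 1 cell of D0-2 held 355 of the 656 UMIs of the Il1b cluster. By cells with a UMI the interferon cluster led, with 33 of 810 (4.07%). The mitotic cluster had 30 of 1625 (1.85%) and the Il1b cluster 26 of 3875 (0.671%). Cxcl16 varied less, from 71.7 ± 10.1 CPM in a cluster led by Bank1 and Sox4 to 286 ± 67.6 CPM in the Il1b cluster.

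**Figure D3:**
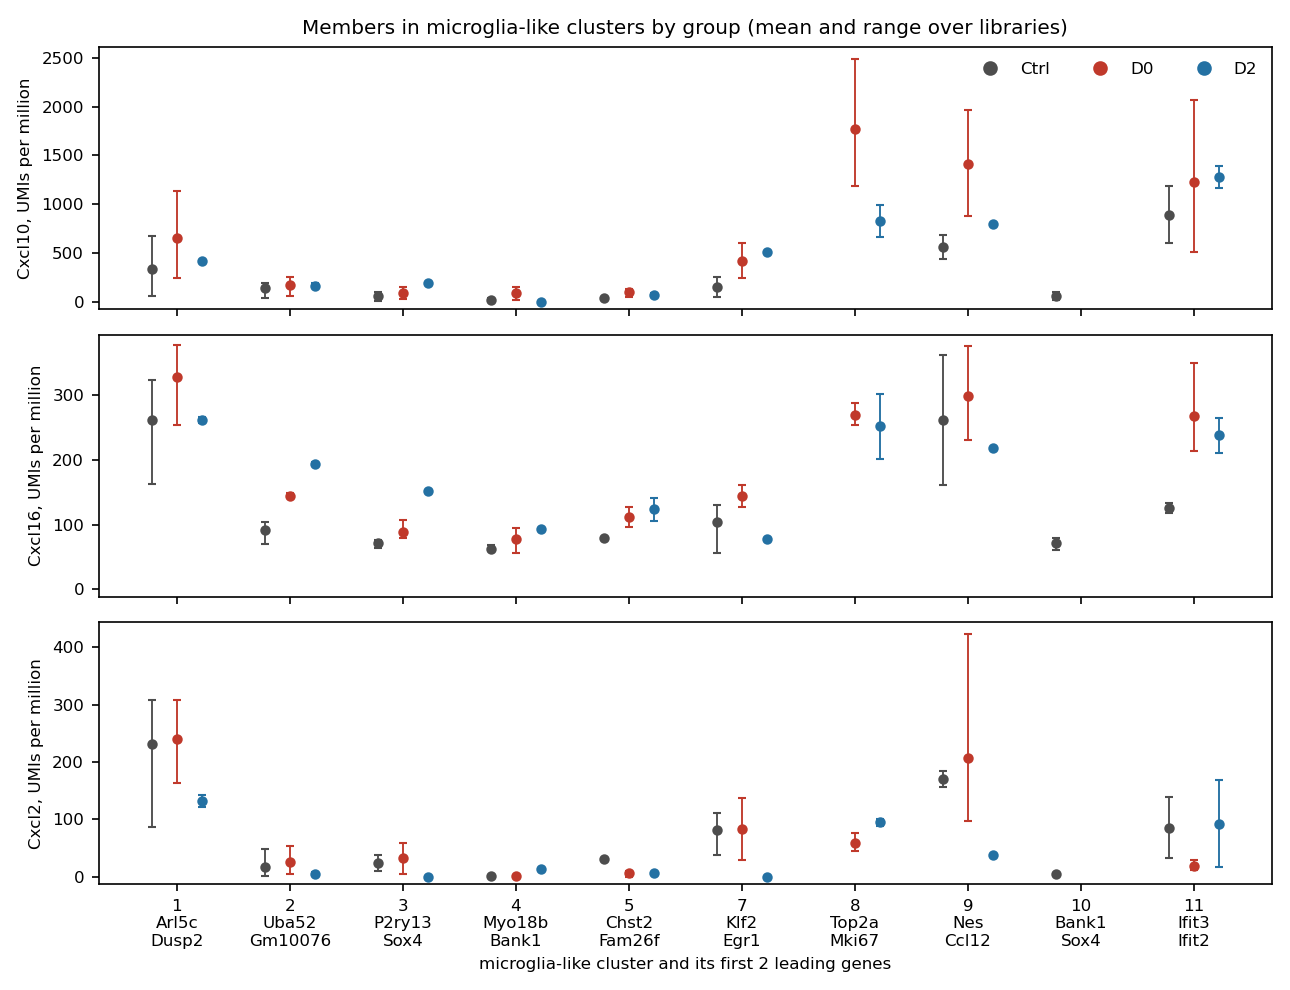
Mean level of Cxcl10, Cxcl16 and Cxcl2 in the clusters of microglia-like cells, in CPM, for Ctrl, D0 and D2, with bars for the range over libraries with at least 20 cells of the cluster. In the Il1b cluster Cxcl2 is at 232 in Ctrl and 240 in D0 on average, and in the interferon cluster Cxcl16 goes from 126 in Ctrl to 268 in D0.

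Within clusters the groups overlapped for some genes and not for others, and the shares of all genes without overlap are not given there. In the Il1b cluster Cxcl2 averaged 232 CPM in Ctrl (87.0 to 307, 158 cells of 3 libraries), 240 in D0 (163 to 308) and 132 in D2 (122 to 142), with overlap of Ctrl and D0. Cxcl10 in that cluster averaged 340 CPM in Ctrl (58.5 to 675), 655 in D0 (241 to 1138) and 418 in D2 (412 to 424), again with overlap. Cxcl16 in the interferon cluster was at 118 and 133 CPM in 2 Ctrl libraries, at 214 to 351 in D0 and at 211 and 265 in D2, without overlap, but in the Il1b cluster it overlapped, at 162 to 324 CPM in Ctrl and 254 to 378 in D0. In the Nes cluster Cxcl10 was at 433 and 687 CPM in 2 Ctrl libraries and at 879 to 1965 in D0, without overlap, and at 794 in the single D2 library. Only 13 Ctrl cells were in the mitotic cluster, so no Ctrl level is given there, and Cxcl10 in it ranged from 1188 to 2489 CPM over D0 libraries (the D2 pair is given above). Over all microglia-like cells, 8 mitosis genes summed to at most 20.4 CPM in a Ctrl library, at least 557 in a D0 library and at least 810 in a D2 library. Without the mitotic cluster the log2 fold of Cxcl10 was 2.54 (edgeR adjusted p = 0.0387) for D0 and 2.23 (adjusted p = 0.0674) for D2 against Ctrl, and without the interferon cluster 3.05 (0.0138) and 2.37 (0.0454).

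The same cells often held more than 1 of these genes. Among 20897 microglia-like cells thinned to 2000 UMIs, 40.6% of the 32 Cxcl1-positive cells held Cxcl2, against 3.17% of all. Of 663 Cxcl2-positive cells, 23.5% held Cxcl10 and 40.3% held Cxcl16, against 11.5% and 22.1% of all. Of 2396 Cxcl10-positive cells, 41.0% held Il1b, against 19.3% of all, and 17.8% held Mki67, against 5.09%. These shares pool cells of all libraries and carry no test.

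Other genes of the pathway were read in the same fit of microglia-like cells, from lists described by their counts, beside 12.3% (D0) and 10.9% (D2) of all genes called higher. Of 13 interferon-stimulated genes, all tested, 8 were higher and 1 lower (Igtp) in D0, with a median log2 fold of 1.06, and 11 were higher in D2, with a median of 1.67. Irf7, the interferon-induced transcription factor gene, had a log2 fold of 1.64 (edgeR adjusted p = 0.000584) in D0, and Ifit2 of 2.00 (adjusted p = 5.12e-05) in D2. Of 12 NF-kappaB target genes, Il1b (log2 fold 3.06, adjusted p = 0.000949), Il1a (1.57, 0.0289) and the regulator gene Nfkbiz (1.03, 0.0464) were higher in D0, with a list median of 0.91, and 1 (Il1b) was higher in D2, with a median of 0.39, a share no larger than that of all genes. The medians over all genes were -0.05 and -0.03.

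Of 8 CXC and atypical receptor genes, 4 passed the filter and Cxcr4 alone was called in D0, where 19.7% of all genes were called in either direction. It was at 0.38, 1.02 and 1.02 CPM in Ctrl, 4.56, 25.4 and 18.8 in D0 and 10.5 and 18.2 in D2, with a log2 fold of 4.59 (SE 0.68, edgeR adjusted p = 0.00151) for D0. Monocyte markers summed over the microglia-like cells were at 58.6 to 173 CPM in Ctrl and 99.9 to 346 in D0, and neutrophil markers at 209 to 264 and 195 to 394, and their part in the Cxcr4 level was not tested. Among the genes of cutting enzymes, Adam10 (log2 fold 0.01, SE 0.13) and Adam17 (0.03, SE 0.10) did not pass the test in D0 and Mmp9 was called (2.47, adjusted p = 0.0311) at 0.08 to 0.11 CPM in Ctrl and 0.26 to 0.61 in D0. Of 6 other mouse CXC ligand genes none passed the filter. Of the 10 platelet genes 4 were tested in microglia-like cells. Of these, Itgb3 was lower in D0 (-0.57, adjusted p = 0.0307). In D2, where 18.7% of all genes were called in either direction, Itgb3 and Gp9 were lower and Clec1b higher.

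The third comparison concerned Pf4 in border-associated macrophage-like cells. It was lower after PLX5622 in every library used. Few treated cells fell into this class, and most of those in D0-1 held no UMI of its marker gene Mrc1. The class held 183, 82 and 184 cells in Ctrl, but 74, 12 and 9 in D0 and 13 and 21 in D2. Pf4 was at 1184, 779 and 1105 CPM in Ctrl, at 48.7, 122 and 554 in D0 and at 97.2 and 198 in D2. D2-3, left out, had 3 cells of this class at 778 CPM, close to Ctrl-2. Every treated library used was below every Ctrl library, with D0-3, of 9 cells, the closest to Ctrl. The share of all genes that separate in this way is not given for this class, so the separation is a description. The share of cells with a Pf4 UMI was 78.7%, 76.8% and 83.2% in Ctrl, 12.2%, 16.7% and 33.3% in D0 and 38.5% and 14.3% in D2.

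**Figure D4:**
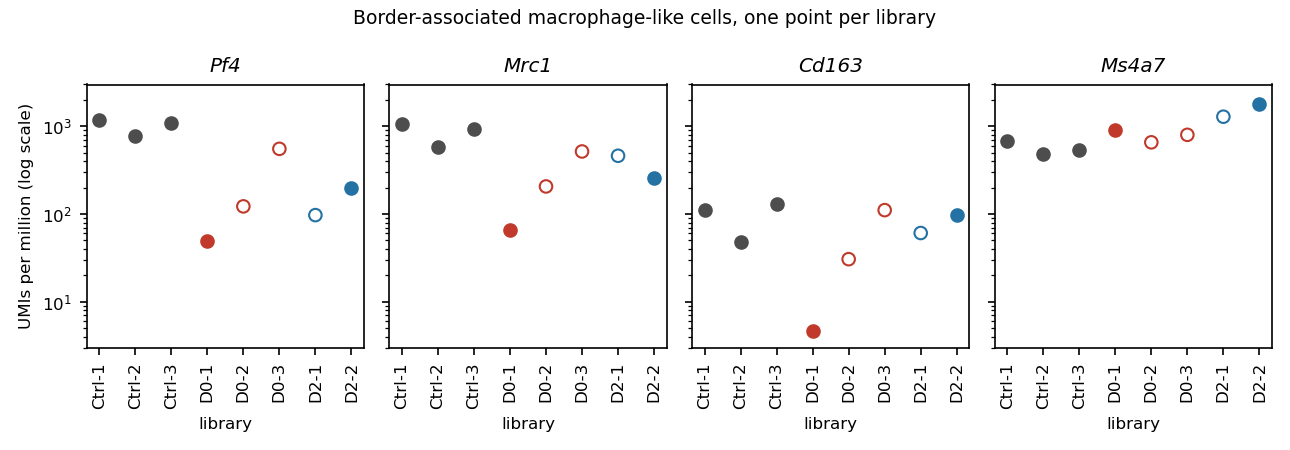
Level of Pf4 and the marker genes Mrc1, Cd163 and Ms4a7 in border-associated macrophage-like cells of each library except D2-3 (CPM, log axis). Hollow points are libraries with under 20 such cells. Pf4 lies at 779 to 1184 in Ctrl and 48.7 to 554 in D0, Mrc1 and Cd163 are low in D0-1 as well, and Ms4a7 is higher in D0 and D2 than in 2 of the 3 Ctrl libraries.

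Only 1 D0 and 1 D2 library had 20 such cells, so the test used libraries with at least 10 cells (3 Ctrl, 2 D0, 2 D2) over 6267 genes. Pf4 fell by 3.52 on the log2 scale in D0 (SE 0.50, edgeR adjusted p = 0.0384), where 0.463% of genes were called and 0.16% were called lower. In D2 the log2 fold was -2.72 (SE 0.48, adjusted p = 0.380), and no gene was called (599 at an unadjusted p under 0.05, 13 by DESeq2, which called Pf4 at an adjusted p of 0.00226). The D0 call was lost with the replicate block (adjusted p = 0.450), with a term for the Cell Ranger version (0.187) and without Ctrl-1 (0.129), Ctrl-2 (0.181) or Ctrl-3 (0.246). Cells were also chosen by a rule per cell (at least 3 of the markers) in place of clusters. Pf4 was then at 1245, 716 and 1057 CPM in Ctrl, 142, 51.9 and 170 in D0 and 64.1 and 183 in D2. D2-3, left out, held 288 CPM in 37 cells. The log2 folds were -2.93 (edgeR adjusted p = 0.00345) for D0 and -2.86 (adjusted p = 0.011) for D2. Mrc1 in the same cells was at 1114, 540 and 893 CPM in Ctrl and 360, 133 and 218 in D0. Ms4a7 in them was at 584, 336 and 434 CPM in Ctrl and 710, 305 and 410 in D0. The share of all genes called in this fit is not given.

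Marker genes of these cells did not all go with Pf4. Mrc1, the mannose receptor gene, was at 1061, 583 and 933 CPM in Ctrl, at 64.9, 206 and 517 in D0 and at 462 and 259 in D2. Lyve1, a hyaluronan receptor gene of perivascular macrophages, was at 70.0, 35.4 and 61.2 CPM in Ctrl and at 0 in D0-1, D0-2, D2-1 and D2-2, but at 49.2 CPM in D0-3. Ms4a7 was at 680.5, 480.3 and 531 CPM in Ctrl, 902, 657 and 800 in D0 and 1288 and 1815 in D2. In D0-3, Cd163 at 111 CPM and Cbr2 at 197 CPM also lay within their Ctrl ranges (48.6 to 130 and 97.1 to 218). The sum of 10 markers of the class was 2247 to 3385 CPM in Ctrl, 1206 in D0-1 and 2679 in D2-2, the libraries with at least 20 such cells. Ms4a7 alone made 902 CPM of the sum in D0-1 and 1815 in D2-2, so the D2-2 sum does not show that the other markers were kept. Mrc1 was found in 76.8% to 85.2% of cells in Ctrl libraries, but in 10.8% in D0-1 and 28.6% in D2-2. D0-2, D0-3 and D2-1 were at 66.7%, 77.8% and 69.2%. Ms4a7 was found in 89.2% of D0-1 cells. Cells of this class also held microglia markers, most of all in Ctrl. P2ry12 was at 864, 1731 and 1790 CPM in Ctrl, 41.8, 581 and 135 in D0 and 97.2 and 98.8 in D2. Tmem119 was at 503, 932 and 775 CPM in Ctrl, 144, 290 and 36.9 in D0 and 146 and 216 in D2. The class was thus not free of microglial transcripts, and their source was not tested. The rule per cell found 15 cells in D0-1 and 25 each in D0-2 and D0-3, against 156, 81 and 167 in Ctrl. Whether cells held less Pf4 or the cells of the class were of another kind cannot be told apart.

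Cxcl2 was called lower in D0 in this class, a call that was lost in most fits that left out a library or added a term. It was at 182, 227 and 84.5 CPM in Ctrl, at 0 in D0-1 and D0-2, at 320 in D0-3 (9 cells, not in the test) and at 24.3 and 0 in D2. At 0 of 74 cells in D0-1 the share of cells with a UMI may be up to 4.05%, and at 0 of 12 in D0-2 up to 25.0%, which limits cells with a UMI at this depth and not cells that express the gene. The edgeR adjusted p was 0.0438, and no fold is given against libraries at 0. It was 0.450 with the replicate block, 0.219 with the version term, and 0.134, 0.214, 0.192 and 0.247 without Ctrl-1, Ctrl-2, Ctrl-3 or D0-1. By the rule per cell the log2 fold was 1.43 (adjusted p = 0.254), so the direction turned with the choice of cells. Cxcl16, at 292, 214 and 152 CPM in Ctrl and 85.8 and 306 in D0-1 and D0-2, had a log2 fold of -0.06 (SE 0.52, adjusted p = 0.986).

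The difference between the responses of both macrophage classes was tested in 1 fit over 11793 genes, in which each library is its own block. Relative to microglia-like cells, the log2 change in border-associated macrophage-like cells was -3.28 for Pf4 in D0 (SE 0.41, edgeR adjusted p = 2.03e-05) and -2.28 in D2 (SE 0.44, adjusted p = 0.00817). Pf4 in microglia-like cells was low and was not called there, so this difference restates the fall within the other class. It is no separate support for that fall, whose D0 call was lost in several fits. Cxcl16 differed as well in D0 (-1.84, SE 0.39, adjusted p = 0.00874). For Cxcl2 (adjusted p = 0.000574) and Cxcl14 (adjusted p = 0.0329) no size is given, since libraries are at or near 0. These 4 of 9 genes stand beside 2.47% of all genes called in D0, and the 2 in D2 (Pf4 and Cxcl2) beside 0.568%. With cells chosen by the rule per cell Pf4 was the single call in D0, and Cxcl16 had a log2 difference of -0.53 (adjusted p = 0.352). In D2 no gene of the set was called without D2-1 or without D2-2.

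In the other classes no chemokine gene of the set passed the test, in fits where few genes did. In neutrophil-like cells Cxcl2 was at 712 and 273 CPM in Ctrl-2 and Ctrl-3, at 1768, 531 and 1197 in D0 and at 314 and 450 in D2. The groups overlapped, with a log2 fold of 1.51 (SE 0.47, edgeR adjusted p = 0.271) for D0 and 0.08 (SE 0.50, adjusted p = 0.956) for D2, where 0.0878% and 2.70% of 4557 genes were called. In monocyte-like cells Cxcl2 had log2 folds of -0.31 (SE 0.38, adjusted p = 0.776) and 1.03 (SE 0.41, adjusted p = 0.230), with 0.471% and 1.17% of 6157 genes called.

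In dendritic cell-like cells Cxcl10 was at 16.4 and 34.2 CPM in Ctrl-1 and Ctrl-3, at 42.8, 490 and 134 in D0 and at 140 and 307 in D2. All treated libraries were above both Ctrl libraries, and the share of all genes that separate so is not given for this class. The log2 folds of 3.36 (SE 1.08, edgeR adjusted p = 0.723) and 3.26 (SE 1.13, adjusted p = 0.766) did not pass. In these fits 0.0138% and 0% of 7224 genes were called (445 and 442 at an unadjusted p under 0.05), and DESeq2 was not run there. Cxcl9 in these cells was at 0 and 190 CPM in Ctrl, at 3.81, 144 and 10.3 in D0 and at 99.6 and 45.2 in D2. The Ctrl libraries spanned nearly the whole range, and the log2 fold was -0.42 (SE 1.29, adjusted p = 0.985) for D0.

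Cxcl12 in endothelial-like cells was at 2122, 1903 and 1521 CPM in Ctrl, at 2323, 2030 and 2364 in D0 and at 2096 and 2886 in D2. The groups overlapped, with log2 folds of 0.29 (SE 0.17, edgeR adjusted p = 0.960) and 0.49 (SE 0.18, adjusted p = 0.519), where 0.0122% and 0.0611% of 8183 genes were called. Cxcl1 did not pass the filter there. It was at 0 in the 3 Ctrl libraries, of 49, 56 and 66 cells, so that the shares of cells with a UMI may be up to 6.12%, 5.36% and 4.55%. The D0 libraries held 9, 10 and 19 UMIs and the D2 libraries 7 and 2. No test was made of it.

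Version 3.0.2 of the Cell Ranger software is named in the files of 6 libraries, and version 3.1.0 in those of the libraries Ctrl-2, Ctrl-3 and D2-3. So 2 of the 3 Ctrl libraries differ from all D0 libraries in version. With the version as a term, or within the 6 libraries of version 3.0.2, the D0 comparison rests on Ctrl-1 as the single Ctrl library, which is assumed to vary like the others. Ctrl-1 was the lowest of the 3 for Cxcl10, Cxcl16 and Cxcl2 (38.4, 67.8 and 9.98 CPM). The log2 folds of D0 against Ctrl in microglia-like cells were then 4.38 and 4.40 for Cxcl10, 2.00 and 2.02 for Cxcl16 and 3.59 and 3.61 for Cxcl2, larger than with all 3 Ctrl libraries. Cxcl13 (edgeR adjusted p = 0.191) and Cxcl14 (0.101) were not called with the term. The Ctrl libraries of version 3.1.0 held more Cxcl10 and Cxcl2 than Ctrl-1, and whether the version had a part in this was not tested.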

How the data were processed

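The 9 10x Chromium 3′ v3 libraries were given as gene by barcode matrices of UMI counts, which the authors made with Cell Ranger (3.1.0 in the submitters' processing notes, 3.0.2 and 3.1.0 in the file headers) on mm10 and deposited with barcodes past the limits below. The study's limits were applied: a barcode needed 500 UMIs and 200 genes, and was dropped over 20000 UMIs or over 10% of mitochondrial counts. Kept libraries held 1808 to 4980 cells and 16156676 to 44754200 UMIs, and intervals cover counting error only.

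Cells were clustered with scanpy 1.11.5 (3000 variable genes without the 9 chemokine genes, 10 components, Leiden resolution 0.6) and clusters were named from marker lists that hold none of them. Scrublet called 59 of 30463 cells, too few to have worked, so no doublet was removed, and the 1031 cells with the highest scores were left out in an alternative.

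UMI counts were summed per library and class (at least 20 cells, or 10 for border-associated macrophage-like cells, a change made because the first minimum left 1 D0 and 1 D2 library) and tested with edgeR 4.0.16 (TMM, quasi-likelihood, low counts filtered, Benjamini-Hochberg over all genes, called under an adjusted p of 0.05). Groups came from sample titles, and D2-3 was left out as in the study. SE is the log2 fold over the square root of F. The fit was also run on simulated counts with a fixed spread, in which only genes with many counts changed. That run does not cover the rare chemokine genes. Over all genes, same-numbered Ctrl and D0 libraries deviated together (r = 0.415, 0.197 and 0.175 over 3 pairs). Ctrl-3 and D0-2, of different numbers, had r = 0.298, and the other such pairs -0.384 to 0.0858. The numbers thus do not clearly pair the libraries, and the labels do not say what a number stands for. The replicate block is given where it changed a call. Alternatives used DESeq2 1.42.0, other scalings, filters, cell sets and libraries.

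Named genes were the 9 members, up to 4 genes of each list with the lowest p, and the 3 genes most like a member. Members, lists and thresholds for naming were chosen with earlier results of these data known. No deposited column was left unused.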

Additional observations from a re-analysis of the deposited data

Results flagged for a closer look

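The response to the diet differed between border-associated macrophage-like and microglia-like cells by an edgeR interaction test with Benjamini-Hochberg adjustment over all genes. For D0 against Ctrl this held for Pf4 (log2 difference -3.28, adjusted p = 2.03e-05), Cxcl2 (adjusted p = 0.000574), Cxcl14 (adjusted p = 0.0329) and Cxcl16 (log2 difference -1.84, adjusted p = 0.00874). For D2 against Ctrl it held for Pf4 (log2 difference -2.28, adjusted p = 0.00817) and Cxcl2 (adjusted p = 0.0365). With cells chosen by the rule per cell, Pf4 was the single call in D0, and Cxcl2 in border-associated macrophage-like cells then had a log2 fold of 1.43 for D0 against Ctrl. In D2 no gene of the set was called without D2-1 or without D2-2. The D0 and D2 sums of border-associated macrophage-like cells rest on 12 to 74 cells a library. Pf4 in microglia-like cells was low and was not called there, so its difference restates the fall within border-associated macrophage-like cells. The D0 call of that fall was lost in several fits.

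The library D2-3, which is in no main comparison, held more of 4 genes in its 638 microglia-like cells than any Ctrl library: 12.6 CPM of Pf4, 1698 CPM of Cxcl10, 17.4 CPM of Cxcl14 and 254 CPM of Cxcl16, against at most 2.02, 153, 0.50 and 92.0 CPM in Ctrl. Pf4, Cxcl10 and Cxcl14 in it also stood above every other library. The share of all genes that do so is not given for D2-3. Of its 83 Pf4 UMIs, 1 cell held 30, and 20 cells held any. Of the 638 cells, 558 lay in the mitotic cluster, which held only 13 Ctrl cells, so unlike mixtures of cells are compared. The part of this mixture in the levels was not tested.

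Barcodes over 20000 UMIs, removed by the filter, were placed next to the microglia-like cells and read as unused data. In them the lowest D0 library held 972 CPM of Cxcl10 and 278 CPM of Cxcl16. The lower of D2-1 and D2-2 held 989 CPM of Cxcl10, 293 CPM of Cxcl16, 109 CPM of Cxcl2 and 4.35 CPM of Cxcl13. The Cxcl13 value is 6 UMIs in 57 such barcodes of D2-1. Each of these levels was above the highest Ctrl library for the same barcodes, where Cxcl10 was at 90.5 to 136 CPM and Cxcl16 at 89.2 to 115 CPM. The share of all genes that do so is not given for these barcodes. In D2-3, with 752 such barcodes, Cxcl13 was at 0.89 CPM, below the 2.42 CPM of Ctrl-2.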

How the results depend on the processing

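Of the values recomputed under other settings, 566 of single genes kept their direction and side of the threshold, 34 gained and 34 lost a call and 16 changed direction, and 215 counts stayed within 1.5 times while 35 did not. Cxcl16 was called in microglia-like cells in every setting of D0 and D2 against Ctrl.

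In microglia-like cells 4 genes of the set were called in D0 and 3 in D2. Leaving out 1 library gave 2 to 5 in D0 (2 without Ctrl-3) and 1 to 4 in D2 (1 without D2-2), and D2-3 in the fit gave 1 in D0. The replicate block gave 6 in D0 and 4 in D2, adding Cxcl2 (adjusted p = 0.0219) in D2, where numbers paired the libraries less clearly (r = 0.0441 and 0.0734 for Ctrl and D2). Scaling by total UMIs alone moved the median log2 fold of all genes in D0 from -0.05 to -0.26, and Cxcl10 was then at 2.74 and Cxcl16 at 1.42. In border-associated macrophage-like cells 2 genes were called in D0 and 0 in D2. With no filter on low counts the counts were 4 and 3, with the version term or the replicate block 0 in D0, and leaving out 1 library gave 0 to 2 in both. In D2, DESeq2 and thinning to 2000 UMIs gave 1, and the rule per cell and leaving out high Scrublet scores gave 2. With no filter, 3 and 2 genes were called in neutrophil-like cells (D0, D2), 1 and 1 in monocyte-like, 1 and 2 in dendritic cell-like and 2 in endothelial-like cells (D0), against 0 in the main fits. For the difference between both macrophage classes, 4 genes were called in D0 and 1 under the rule per cell. In D2 it was 2, or 4 with no filter, 5 without high Scrublet scores and 0 to 4 leaving out 1 library (0 without D2-1 or D2-2, 4 without Ctrl-1, Ctrl-3, D0-1 or D0-2). Shares without overlap numbered 3 in D0 (5 unthinned, 3 to 5 leaving out 1 library, 5 without Ctrl-1) and 5 in D2 (5 to 8, with 8 without Ctrl-2). The shares of all genes called, or without overlap, in these other settings are not given, so the counts are descriptions. The causes of these shifts were not tested.

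Directions changed mostly in values near 0 that were not called. In microglia-like cells, leaving out 1 library gave log2 folds of -0.27 to 0.036 for Pf4 (0.02 without Ctrl-3, 0.01 without D0-2) and -0.22 to 4.25 for Cxcl1 in D0, and -1.32 to 6.53 for Cxcl9 in D2. D2-3 gave 1.72 for Pf4 in D2, and all myeloid cells gave -0.024 for Cxcl14 in D2, a call lost. Between D2 and D0, Cxcl10 was at 0.21 with the replicate block and 0.54 with D2-3, and Cxcl16 at 0.045 with D2-3. Cxcl2 in D2 neutrophil-like cells went from -0.28 to 0.71 leaving out 1 library and was -0.39 with at least 10 cells, and in D0 dendritic cell-like cells from -1.43 to 0.086, and 0.14. Fits without the mitotic or the interferon cluster, and within 1 version, were added after the data were seen. D2-3 does not enter the D0 shares. Depth limits Cxcl1, Cxcl9, Cxcl13 and Cxcl14, each with a UMI in under 1% of microglia-like cells.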
